A study of Mus musculus with 50 samples.

Results

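The macrophage (CD68+) segments of a single ozone-exposed wild type mouse lung section were compared between regions marked as injured and regions marked as peri-injured. The comparison takes the raw barcode counts of 8 of the 48 tissue segments in the series, which are the CD68+ segments of injured regions 2, 3, 4 and 9 and of peri-injured regions 5, 6, 7 and 15. The section came from a mouse with wild type surfactant protein C (SP-C), 12 weeks of age, whose whole body was exposed to 0.8 ppm ozone for 3 h and whose lungs were taken 72 h later. The section carries 1 study identifier and is taken as 1 animal, so the 4 regions of each type are parts of the same lung and not separate mice. The CD45- segments of the same 8 regions hold cells without the leukocyte marker. The air section, from another SP-C wild type mouse of 12 weeks in filtered air, has 4 regions described as healthy, and its time point and titles were followed where its treatment label names ozone. The 2 mutant ozone sections, each 1 animal with mutant SP-C and the same exposure, one of 12 and one of 80 weeks, enter where a difference between sections was tested and, with no test, where identifiers were followed in other segments. The sources used here do not give how a region was judged injured or peri-injured.

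Macrophages are the resident phagocytes of the air spaces and the interstitium of the lung. They take up inhaled particles, spent surfactant and the remains of dead cells, and after injury they are joined by macrophages that arise from blood monocytes. Ozone is an oxidant gas that damages the cells lining airways and alveoli, and macrophages gather where that damage occurs. CD68 is a protein of endosomes and lysosomes that macrophages carry in large amounts, and CD45 is found on the surface of leukocytes. GeoMx digital spatial profiling releases barcodes from RNA probes in a chosen, stained part of a section, so each value is the summed signal of all cells in that part, and fewer cells of a type cannot be told apart from less RNA per cell. Each probe is listed under an RTS identifier. The files do not pair these identifiers with genes, so the results are given by identifier, without gene names or functions.

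The 8 segments held 43955 to 78441 counts each and 464020 in all. Injured segments averaged 63250 ± 11153 counts and peri-injured segments 52756 ± 11736 (SD, n = 4 each), against 40765 ± 13863 in the 4 CD68+ segments of the air section. Of 20175 identifiers, 1565 had at least 40 counts over the 8 segments and were tested; they carried 38.4% of all counts, with a median of 7.25 counts per segment. The other 18610 identifiers could not be judged at this depth.

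Few identifiers passed a test between injured and peri-injured macrophage segments. In edgeR's quasi-likelihood test, 1 of 1565 identifiers, 0.0639%, passed an adjusted p of 0.05, and it was higher in injured regions. None passed in the lower direction, also with DESeq2 and with limma voom, which each called 1 identifier, the same one. At an unadjusted p under 0.05, edgeR counted 127 identifiers, DESeq2 43 and voom 99. The median log2 fold change of all tested identifiers was -0.02, with 750 above 0 and 815 below. The regions share 1 animal, so these p-values are too small for a statement on animals and measure only the spread between parts of this lung.

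RTS0074750 was the identifier that passed. Its counts were 235, 172, 308 and 201 in injured regions 2, 3, 4 and 9, against 98, 85, 85 and 79 in peri-injured regions 5, 6, 7 and 15. As CPM, counts scaled to a common library size, that is 4033, 3456, 4041 and 3463 in the injured regions, against 1429, 1900, 1785 and 1666 in the peri-injured regions. Every injured region lay above every peri-injured region, and the lowest injured value was 3456 against a highest peri-injured value of 1900. The means were 3749 ± 333.5 CPM in injured segments against 1695 ± 202 CPM in peri-injured ones (SD, n = 4 each), a log2 fold change of 1.11 (SE 0.19, adjusted p 0.0268, edgeR over regions of 1 animal). It was an abundant identifier, with a mean level above that of 99.2% of those tested. No single region held more than 24.4% of its counts. In the air section its CD68+ level was 881 ± 315 CPM (SD, n = 4), with a highest region of 1334 CPM.

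The call of RTS0074750 was lost when any region but injured region 9 was left out, while its size changed little. Without any of injured regions 2, 3 and 4, or of peri-injured regions 5, 6, 7 and 15, the adjusted p lay between 0.071 and 0.15 and no identifier was called. Its log2 fold change stayed between 1.04 and 1.18 over all 8 omissions. Without injured region 9, 4 identifiers were called, all higher in injured segments: RTS0074750 with an adjusted p of 0.0018, and RTS0081477, RTS0063074 and RTS0063077 with adjusted p of 0.000628, 0.0382 and 0.0462. The last 3 are named because of their calls here, after their values were seen.

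**Figure D1:**
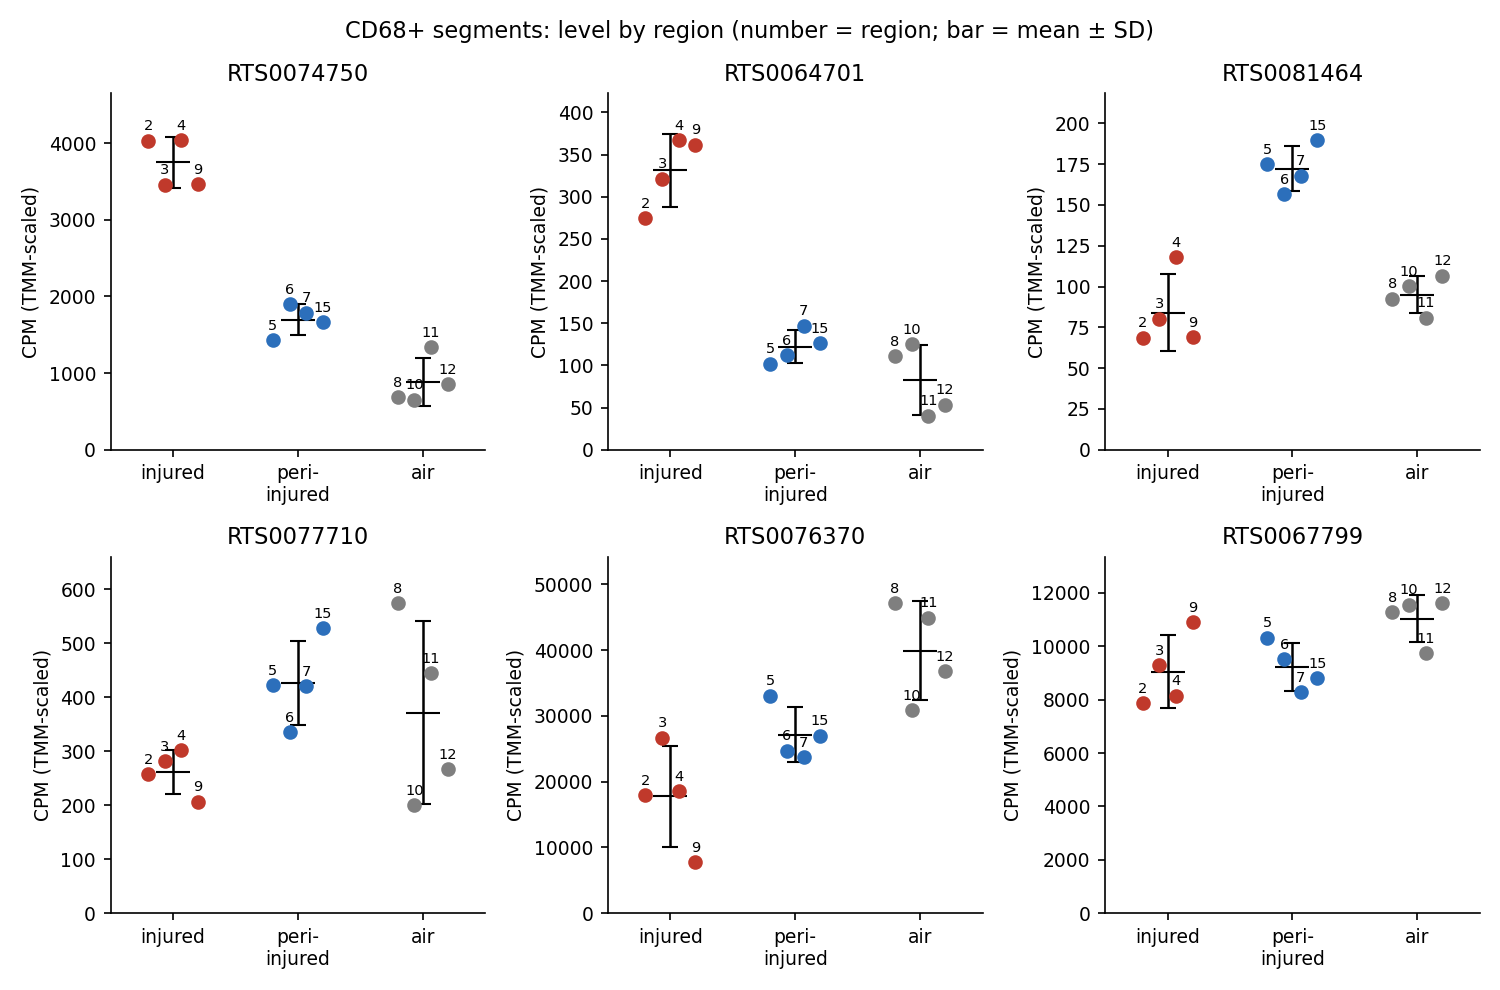
Level in CPM of 6 identifiers (1 panel each, linear axes from 0) in CD68+ segments of the wild type ozone section, injured and peri-injured, and of the air section; each point is 1 region with its number, and bars give the mean ± SD of 4 regions. RTS0074750 lies between 3456 and 4041 CPM in injured regions and between 1429 and 1900 CPM in peri-injured regions, whereas injured region 9 stands apart for RTS0076370.

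RTS0064701 came next among the abundant identifiers without overlap that were higher in injured regions, and it did not pass. It had 275, 322, 367 and 362 CPM in injured regions 2, 3, 4 and 9, against 102, 112, 147 and 127 CPM in peri-injured regions 5, 6, 7 and 15. These values rest on 81 counts in injured and 25 counts in peri-injured segments. The log2 fold change was 1.41 (SE 0.28, adjusted p 0.0782), the adjusted p ran from 0.0181 to 0.999 over 16 other settings, and 3 of these called it. The air level was 82.5 ± 41.9 CPM (SD, n = 4).

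No identifier passed as lower in injured segments. The smallest adjusted p in that direction was 0.276, for RTS0070823, whose counts came almost all from 1 region, and for RTS0076924 and RTS0071888, whose levels were below the median of those tested; these 3 are named after their values were seen. Among lower identifiers without overlap and with a level at or above that median, RTS0081464 and RTS0077710 had the smallest p. RTS0081464 had 68.7, 80.4, 118 and 69.0 CPM in injured regions 2, 3, 4 and 9, against 175, 156, 168 and 190 CPM in peri-injured regions 5, 6, 7 and 15, from 21 and 36 counts. The log2 fold change was -1.03 (SE 0.34, adjusted p 0.425). RTS0077710 averaged 262 ± 40.9 CPM in injured segments and 426 ± 78.6 CPM in peri-injured segments (SD, n = 4 each), with a log2 fold change of -0.73 (SE 0.25, adjusted p 0.433). In neither did the regions overlap. In CD68+ segments of the air section RTS0081464 was at 95.1 ± 11.1 CPM and RTS0077710 at 371 ± 170 CPM (SD, n = 4).

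Separation of the regions was more frequent than calls. In 66 of 1565 identifiers, 4.22%, the 4 injured and the 4 peri-injured regions did not overlap in level. A random order of the regions without ties would separate a share of 0.0286, counting both directions. Of the 66, 39 (2.49%) were higher and 27 (1.73%) lower in injured regions. Those higher had a median log2 fold change of 0.78 (0.39 to 4.24) and a median of 106 counts over the 8 segments. Those lower had a median of -0.84 (-3.67 to -0.40) and a median of 49 counts. Among the 187 identifiers with at least 160 counts, 12 were higher without overlap and none lower; in this set 105 log2 fold changes were above 0 and 82 below. Fitted alone, the 187 gave 1 edgeR call, and 25 reached an unadjusted p under 0.05. In the 39 higher identifiers the injured region nearest to the peri-injured ones was region 9 in 14, region 4 in 11, region 2 in 8 and region 3 in 6. In the 27 lower identifiers it was region 3 in 12, region 2 in 8, region 4 in 4 and region 9 in 3.

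**Figure D2:**
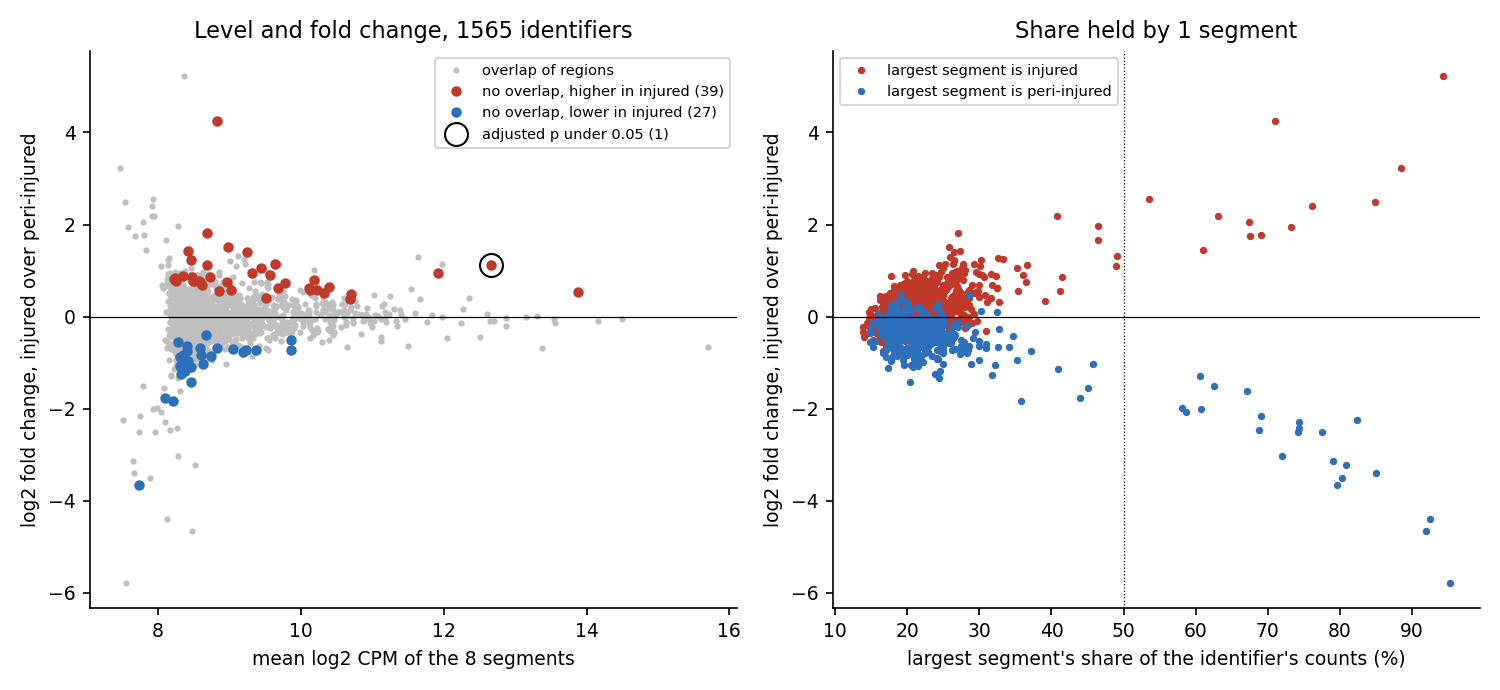
Log2 fold change of injured over peri-injured CD68+ segments for the 1565 identifiers tested, against mean log2 CPM of the 8 segments (left) and against the share of an identifier's counts held by its largest segment (right); points are identifiers, coloured by overlap of regions on the left and by the type of the largest segment on the right. The 66 identifiers without overlap have a median log2 fold change of 0.78 where higher and -0.84 where lower in injured regions. Of all identifiers tested, 27 have a log2 fold change of 2 or more in either direction, and 26 of these lie right of the dotted line at 50%.

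Large fold changes came mostly from single segments. In 34 identifiers 1 segment held more than 50% of the counts, 12 times an injured and 22 times a peri-injured segment. Of the 27 identifiers with a log2 fold change of at least 2 in either direction, 26 were of this kind. Injured region 2 was the segment in 6, region 9 in 3, region 4 in 2 and region 3 in 1 of these identifiers, and peri-injured region 5 in 9, region 6 in 6, region 7 in 4 and region 15 in 3. RTS0074748 had 314 counts in injured region 2 and 3, 1 and 8 in injured regions 3, 4 and 9, against 1, 3, 3 and 0 in peri-injured regions 5, 6, 7 and 15. In the CD45- segment of injured region 2 it had 19 counts. RTS0062712 had 46 counts in injured region 2 and at most 2 in any other of the 8 segments. On the peri-injured side, RTS0068006 had 173 and RTS0070823 had 241 counts in peri-injured region 7, against at most 4 and 6 counts in any other segment. None of these 4 passed the test, with adjusted p of 0.276 for RTS0074748, 0.541 for RTS0062712, 0.356 for RTS0068006 and 0.276 for RTS0070823. Without the low-count filter edgeR called 51 of 20169 identifiers, 28 higher and 23 lower, and in 37 of the 51 a single segment held over 50% of the counts.

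RTS0076055 was higher in injured regions with 1 region well above the rest. It had 17, 16, 14 and 135 counts in injured regions 2, 3, 4 and 9, against 0, 0, 3 and 5 in peri-injured regions 5, 6, 7 and 15. The levels were 292, 322, 184 and 2326 CPM in the injured regions, against at most 105 CPM in the peri-injured regions; the 0 in region 5 allows up to 43.7 CPM and the 0 in region 6 up to 67.1 CPM, taking 3 counts as the limit. The regions did not overlap, and injured region 9 held 71.1% of all its counts. The log2 fold change was 4.24 (SE 0.92, adjusted p 0.101), and without injured region 9 it was 2.62. Its CD68+ level in the air section was 193 ± 153 CPM (SD, n = 4), with regions from 40.4 to 400.3 CPM that overlapped those of both ozone groups. RTS0064947 had too few counts to be tested, with 3, 5, 3 and 3 counts in injured regions 2, 3, 4 and 9, against 2, 0, 2 and 0 in peri-injured regions 5, 6, 7 and 15.

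The most abundant identifiers of the 8 segments did not separate the region types. RTS0076370 had 17970, 26666, 18566 and 7788 CPM in injured regions 2, 3, 4 and 9, against 33065, 24721, 23672 and 26998 CPM in peri-injured regions 5, 6, 7 and 15. Injured region 3 lay within the peri-injured range and region 9 far below every other region. The log2 fold change was -0.65 (SE 0.28, adjusted p 0.562), and the air section had 39906 ± 7484 CPM (SD, n = 4). RTS0067799 averaged 9054 ± 1377 CPM in injured segments and 9229 ± 890 CPM in peri-injured segments (SD, n = 4 each), a difference smaller than either spread (log2 fold change -0.06, SE 0.19, adjusted p 0.988).

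Segments were also compared as wholes, in 7 measures with exact two-sided permutation tests over the 70 arrangements of 4 against 4 regions, whose smallest possible p is 0.0286. The share of counts in the 10 most abundant identifiers was 6.38 ± 0.51% in injured and 7.43 ± 0.51% in peri-injured segments (SD, n = 4 each; exact permutation p 0.0571, adjusted 0.36). Injured region 3, at 7.09%, lay just above peri-injured region 7, at 6.97%. Identifiers with at least 1 count numbered 17044 ± 878 in injured and 15909 ± 1093 in peri-injured segments (exact p 0.143), and total counts gave an exact p of 0.257. The CD68+ segment took up 24.3 ± 7.5% of the captured area in injured and 30.9 ± 6.1% in peri-injured regions (exact p 0.171), with 38.1 ± 14.8% in air. Duplicate reads were 93.0 ± 2.1% of aligned reads in injured and 93.7 ± 0.9% in peri-injured segments (exact p 0.657), while segment area and counts per area gave exact p of 1 and 0.257. None of the 7 measures passed after adjustment, all regions being from 1 animal.

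The segment labels were checked with identifiers taken from the air section, since defining marker genes could not be looked up. There, 82 of 246 identifiers with at least 80 counts were higher in the CD68+ than in the CD45- segment in all 4 regions, and 32 were lower in all 4. In the wild type ozone section, 78 of the 82 were higher on average in CD68+ segments, with a median log2 difference of 0.53, and 31 of the 32 were lower, with a median of -0.65. Over all 246, 146 were higher and 100 lower, with a median of 0.11. The 82 identifiers made up 9.80%, 10.1%, 9.85% and 6.87% of counts in injured regions 2, 3, 4 and 9, against 10.8%, 9.63%, 9.55% and 10.0% in peri-injured regions 5, 6, 7 and 15. Injured region 9 was the lowest, and the other 7 segments lay within 9.55 to 10.8%. The list holds RTS0076370, which was itself lowest in region 9. Without it, a choice made after seeing the data, the other 81 made up 8.03%, 7.51%, 8.05% and 6.16% in injured regions 2, 3, 4 and 9, against 7.55%, 7.11%, 7.26% and 7.36% in peri-injured regions 5, 6, 7 and 15. Region 9 was still the lowest, and the difference of the means was 0.12 percentage points, against -0.85 with RTS0076370. In the CD45- segments the same 82 made up 6.23 ± 0.82% of counts in injured, 5.40 ± 1.08% in peri-injured and 3.68 ± 0.39% in air regions (SD, n = 4 each).

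The identifiers low in air macrophage segments had a smaller summed share in each injured region than in any peri-injured region, as a description with no test. The 32 made up 1.42%, 1.40%, 1.40% and 1.45% of counts in injured regions 2, 3, 4 and 9, against 1.64%, 1.63%, 1.49% and 1.53% in peri-injured regions 5, 6, 7 and 15. The groups did not overlap, and the air CD68+ segments spanned 1.34 to 1.58%. In CD45- segments the 32 made up 2.35 ± 0.12% in injured and 2.55 ± 0.16% in peri-injured regions, with overlap, and 2.34 ± 0.06% in air (SD, n = 4 each). Of the 30 tested, 22 were lower and 8 higher in injured segments, and none was called or separated the regions by itself. Their median log2 fold change was -0.20, against -0.02 over all 1565 identifiers. Among all 246 identifiers kept in air, 238 were tested, with 137 lower, 101 higher and a median of -0.05. Of the 81 tested from the 82, 42 were higher and 39 lower with a median of 0.01. One was called, RTS0074750. Whether the smaller share of the 32 has a part in any other result was not tested.

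**Figure D3:**
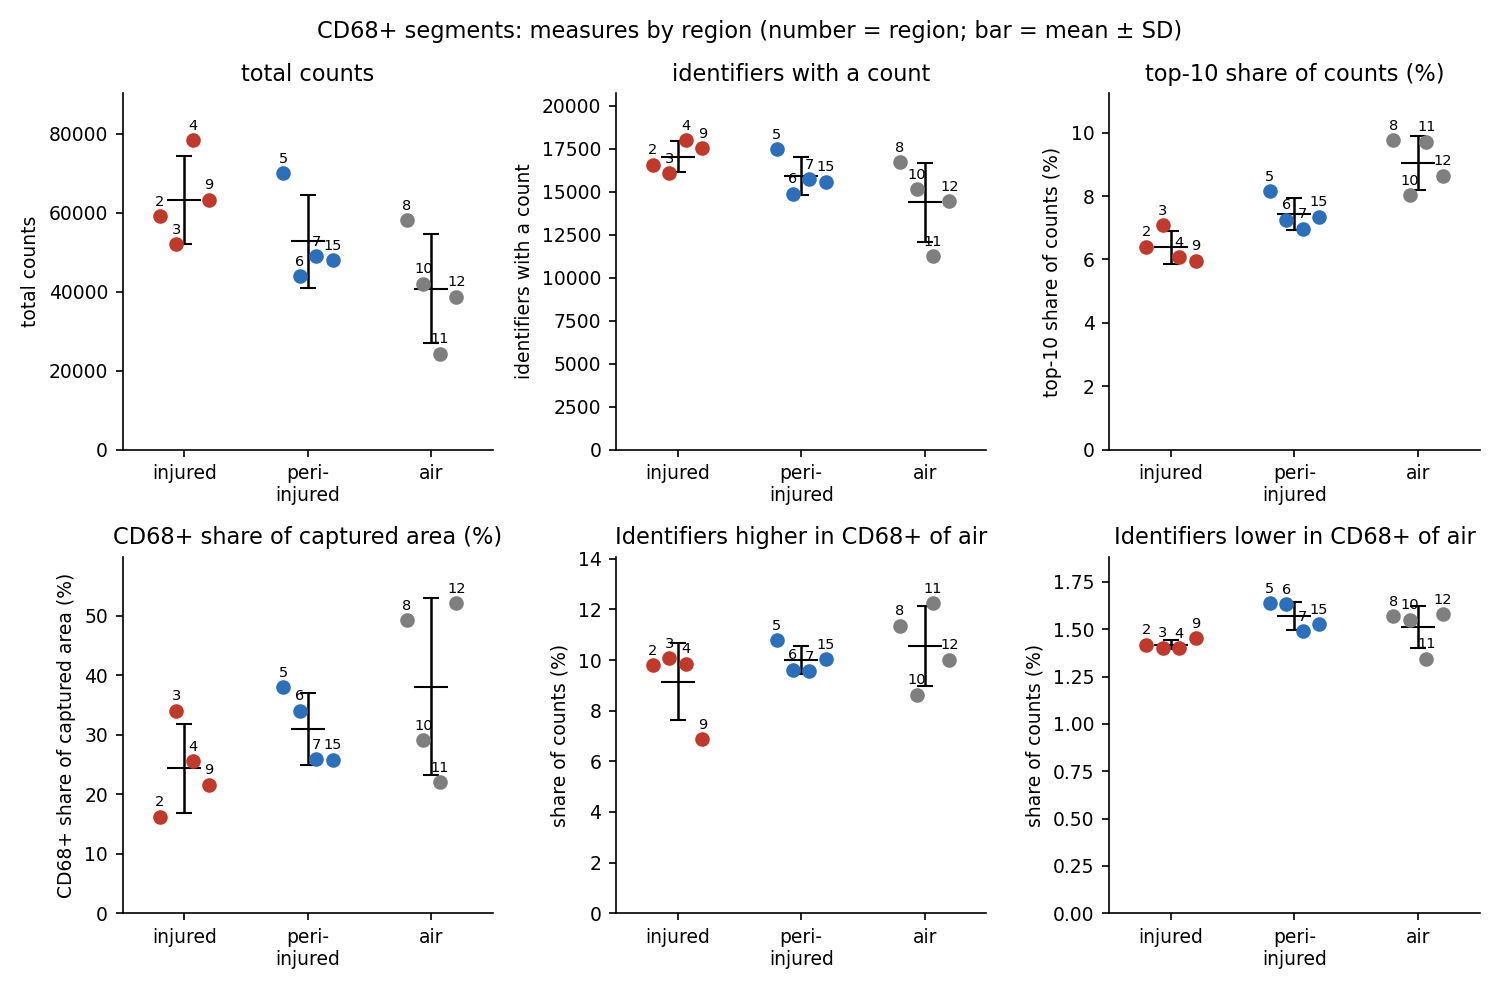
Measures of CD68+ segments (1 panel each, axes from 0) in injured, peri-injured and air regions; points are regions with their numbers and bars give the mean ± SD of 4 regions. Injured region 9 has the lowest share of the identifiers that are higher in CD68+ segments of air, at 6.87%, and the share of the identifiers lower there is 1.40 to 1.45% in injured and 1.49 to 1.64% in peri-injured regions.

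The CD45- segments of the same 8 regions were compared in the same way. There, edgeR called 2 of 10043 identifiers (0.0199%), both higher in injured regions. Injured segments held 144301 to 300708 counts and peri-injured segments 103077 to 118350, so depth did not overlap between the region types. Whether depth has a part in the results of these segments was not tested. DESeq2 called 1 and voom none, and edgeR found 549 at an unadjusted p under 0.05. RTS0076055 had 353, 224, 201 and 442 CPM in the CD45- segments of injured regions 2, 3, 4 and 9, against 66.5, 27.5, 82.3 and 151 CPM in peri-injured regions 5, 6, 7 and 15 (log2 fold change 1.90, SE 0.32, adjusted p 0.0187). Its CD45- level in the air section was 267 ± 179 CPM (SD, n = 4). Those air regions ran from 135 to 522 CPM and overlapped both ozone groups. RTS0064427 had 837, 424, 550 and 652 CPM in the injured regions, against 316, 202, 338 and 255 CPM in the peri-injured regions (log2 fold change 1.17, SE 0.21, adjusted p 0.0283). Its CD45- level in the air section was 233 ± 43.1 CPM (SD, n = 4). In neither did injured and peri-injured regions overlap, which held for 305 identifiers (3.04%), 150 of them higher (1.49%) and 155 lower (1.54%). A random order without ties would separate a share of 0.0286, counting both directions. The count of calls was 0 without injured region 2 or 9. It was 2 higher and 2 lower without injured region 4, 2 higher and 9 lower without peri-injured region 5, 2 higher and 6 lower without peri-injured region 7, and 1 higher and 3 lower without peri-injured region 15. Without peri-injured region 6 it was 2, both lower, and neither of the 2 above was called (adjusted p 0.0534 for RTS0076055 and 0.0811 for RTS0064427). Without the low-count filter 3 were higher and 11 lower. Without peri-injured region 15 the adjusted p of RTS0064427 was 0.0635. Among lower identifiers without overlap and with a level at or above the median, those with the smallest p were RTS0071078, for which peri-injured region 7 held 46.1% of the counts (log2 fold change -1.77, adjusted p 0.346), and RTS0061227 (log2 fold change -1.02, adjusted p 0.346).

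RTS0074750, called in CD68+ segments, averaged 375 ± 106 CPM in CD45- segments of injured and 298 ± 34.5 CPM in those of peri-injured regions (SD, n = 4 each), with overlap of the regions and a log2 fold change of 0.35 (adjusted p 0.947). RTS0064427, called in CD45- segments, averaged 275 ± 119 CPM in CD68+ segments of injured regions and 199 ± 56.6 CPM in those of peri-injured regions (log2 fold change 0.41, adjusted p 0.9). Whether the injury difference itself differed between the segments was tested as an interaction over 5046 identifiers. None passed in edgeR, DESeq2 or voom (0%), with 247, 132 and 171 at an unadjusted p under 0.05. For RTS0074750 the difference was 0.78 larger in CD68+ segments on the log2 scale (SE 0.27, unadjusted p 0.00634, adjusted p 0.95), and for RTS0064427 it was -0.73 (SE 0.41, adjusted p 0.964). The p-values are over regions of 1 animal.

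**Figure D4:**
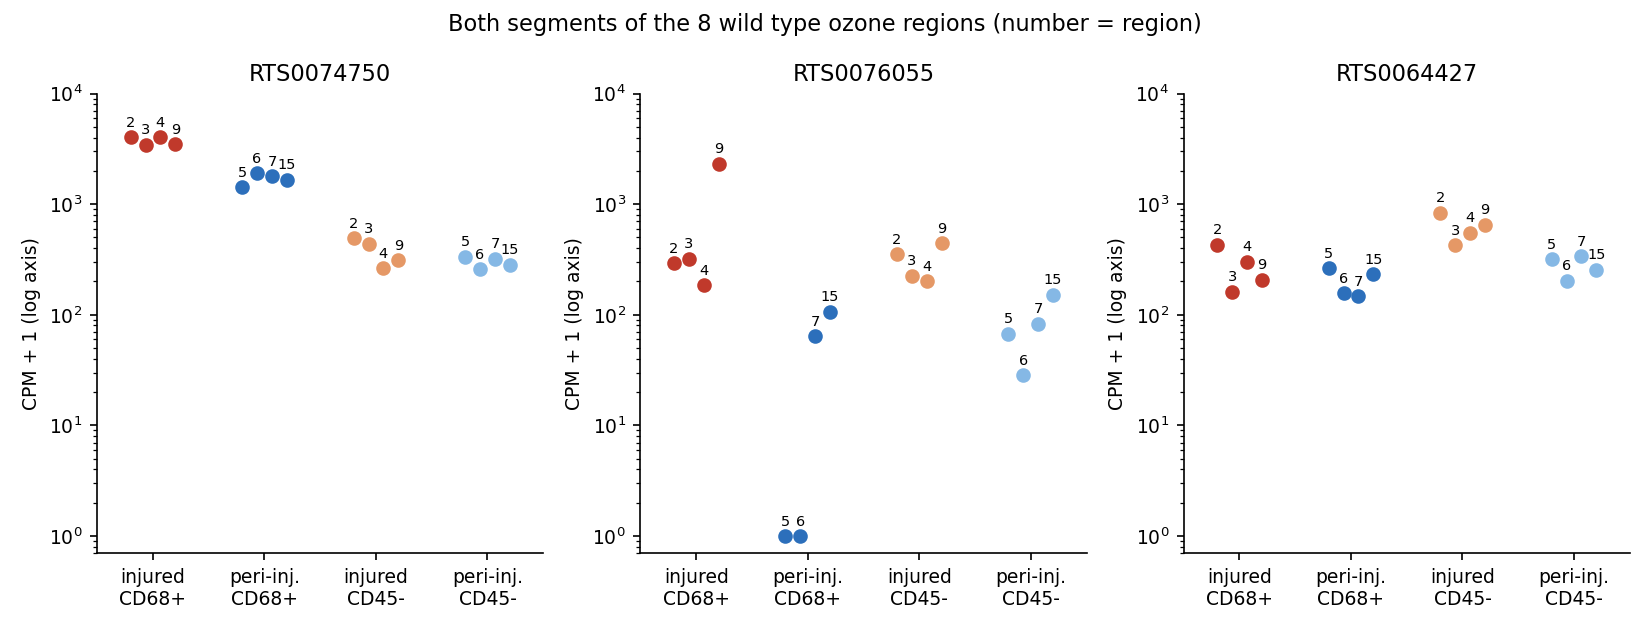
Level as CPM + 1 on a log axis of RTS0074750, RTS0076055 and RTS0064427 in CD68+ and CD45- segments of the wild type ozone section, injured and peri-injured; points are regions with their numbers. The injured points of RTS0074750 lie above all peri-injured points in CD68+ segments and overlap them in CD45- segments, RTS0064427 shows the opposite, and RTS0076055 has no overlap in either segment, with 2 peri-injured CD68+ segments at 0 counts.

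The injury difference of the wild type section was set against that of each mutant section, whose CD68+ segments cover 3 injured and 3 peri-injured regions. Genotype, animal and collection plate change together there, for the old mutant section age as well, and cannot be told apart. Against the young mutant section, 4 of 1142 identifiers (0.350%) differed in edgeR, with 2 above 0 (0.175%) and 2 below (0.175%); DESeq2 called 3 and voom 1. RTS0076158 had 120, 80.4, 78.7 and 121 CPM in wild type injured regions 2, 3, 4 and 9, against 102, 89.4, 252 and 316 CPM in peri-injured regions 5, 6, 7 and 15. In the young mutant section it had 2286, 1659 and 2536 CPM in injured regions, against 273, 294 and 377 CPM in peri-injured regions. The difference of the differences was -3.59 (SE 0.49, adjusted p 3.52e-05), and it passed under all 13 other settings. Within the wild type section the log2 fold change of RTS0076158 was -0.92 in CD68+ segments (adjusted p 0.603), with overlap. In CD45- segments it was -0.35, without overlap (adjusted p 0.912). RTS0076158 is 1 of the 32 identifiers lower in CD68+ segments of air, with 389 ± 131 CPM there and 758 ± 119 CPM in CD45- segments (SD, n = 4 each). Whether RNA of other cells in the CD68+ segments has a part in the difference between sections was not tested.

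The other 3 calls against the young mutant section are named because they are few, after their values were seen. Each has few counts in some of the groups compared. RTS0063075 had 88 counts in injured and 35 in peri-injured wild type segments, while the young mutant section had 0 in all 3 injured regions and 9 counts in peri-injured ones, so that its fitted difference of 6.53 (adjusted p 0.00534) depends on the model's small added count and gives no size. RTS0081631 (7.97, adjusted p 0.0177) had 124 counts in young mutant peri-injured region 6 and at most 1 in its other peri-injured regions. RTS0076072 (-6.20, adjusted p 0.0177) had 116, 26 and 72 counts in injured regions of the young mutant section, against 1, 0 and 0 in its peri-injured regions, and 12 counts in injured against 6 in peri-injured wild type segments. The number of calls was 17 without wild type injured region 9, 9 without injured region 3, 8 without peri-injured region 7 and 2 without peri-injured region 5. The adjusted p of RTS0081631 was 0.075 without injured region 2 and 0.0553 without peri-injured region 5, and that of RTS0076072 was 0.0575 without peri-injured region 5 and 0.103 without peri-injured region 7. Against the old mutant section, 0 of 1142 (0%) passed in edgeR, DESeq2 or voom, with 50, 18 and 61 at an unadjusted p under 0.05. RTS0074750 did not pass in either test, with differences of 0.60 (SE 0.45, adjusted p 0.741) against the young and 0.39 (SE 0.46, adjusted p 0.9998) against the old mutant section.

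The 8 segments were similar to each other across the 187 identifiers with at least 160 counts. Pairs of injured segments had a median Pearson r of 0.816 in log2 CPM (0.725 to 0.921, 6 pairs), pairs of peri-injured segments 0.853 (0.762 to 0.925, 6 pairs), and injured with peri-injured 0.793 (0.659 to 0.913, 16 pairs). The points are identifiers of 1 section, which share its tissue, probe kit and library preparation. The lowest mean r with the other 7 belonged to peri-injured region 7, at 0.738, and injured region 9, at 0.751, while the other 6 ranged from 0.781 to 0.858. Of the regions in the injured group, region 9 also had the lowest RTS0076370 level and the highest RTS0076055 level.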

How the data were processed

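Per the labels' protocols, lungs were perfused, inflated with formalin, embedded in paraffin, sectioned, stained for CD45, CD68 and DNA, and profiled with a mouse whole transcriptome probe kit. The authors deposited counts of probe barcodes, made with the GeoMx NGS Pipeline, version 2.3.4, per the file headers. The headers give a quality for molecular identifiers, and the counts are far below the aligned reads, so the counts are taken as free of duplicate reads. CD45 and CD68 define the segments. Since the identifiers are not paired with genes, the probes of these markers could not be recognised or left out. The wild type ozone and air sections were collected on 1 plate and the mutant sections on another, and all were sequenced in 1 run, per the file headers. The area of a segment was read from the wild type worksheet that the authors deposited, which prints no unit.

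A barcode that is not listed was taken as 0. Of 20238 identifiers, 20175 lie in the main run of identifier numbers, which has small gaps, and entered the analysis; 63 others, with 0 to 6 counts per wild type ozone CD68+ segment, stayed out. The no-template control of that plate held 229 counts. Identifiers with at least 40 counts over the 8 segments (80 over 16, 100 over 20) were scaled by TMM. The test was the two-sided quasi-likelihood test of edgeR 4.0.16 in R 4.3.3 (functions glmQLFit and glmQLFTest). Its p-values were adjusted over all identifiers tested by Benjamini-Hochberg. The test was also run on simulated counts. These had the same spread for every identifier and no excess in single segments, so they do not cover identifiers with such an excess. The air section gave lists and levels with no test; the mutant sections entered the tests between sections and 1 description with no test. CPM use TMM-scaled library sizes of all 48 segments, and log2 CPM a prior count of 2. The SE is the fold change over the square root of F. Exact permutation tests used scipy 1.17.1. Alternatives were DESeq2 1.42.0, limma voom 3.58.1, other scaling, other filters, a robust fit and leaving out each region.

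For each comparison up to 2 higher and 2 lower identifiers are named, with a level at or above the median and no overlap of regions, ranked by fold change among those that passed or else by p. The most abundant, those with the largest excess in 1 segment, and RTS0076055 and RTS0064947 from earlier work on these data were added. The identifiers and lists were chosen with earlier results of these data known. Both segments of a region come from 1 region of 1 animal, so region numbers pair them; their deviations from group means had a median correlation of 0.132 over 187 identifiers (-0.027 between other regions), and in 5 of 8 the own region gave the highest value. All pairs of regions of 1 type differed by more than sampling noise (chi-square per degree of freedom of at least 1.43). Intervals and limits from counts cover counting error only.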

Additional observations from a re-analysis of the deposited data

Results flagged for a closer look

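In 46 groups of 4 regions (the 7 segment measures and the named identifiers, by region type), 5 held a region whose gap to its nearest neighbour took up more of the group's range than Dixon's limit for 4 values; chance alone gives this in about 5% of groups. RTS0076055 in injured CD68+ segments had a ratio of 0.936, from region 9 at 2326 CPM. The other 4 were named for their excess in 1 segment, so that a large ratio follows from how they were chosen. RTS0074748 (0.977) and RTS0062712 (0.956) stood out in injured region 2, and RTS0068006 (0.998) and RTS0070823 (0.984) in peri-injured region 7.

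The injury difference in CD68+ segments differed between the wild type and the young mutant section for 4 identifiers, as log2 difference of the wild type minus the mutant section. RTS0076158 differed by -3.59, RTS0063075 by 6.53, RTS0081631 by 7.97 and RTS0076072 by -6.20. RTS0081631 rests on 124 counts in 1 young mutant peri-injured segment, RTS0063075 on 0 counts in the 3 young mutant injured segments.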

How the results depend on the processing

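In macrophage segments, edgeR's call of 1 identifier became 51 without the low-count filter, 2 with filterByExpr and 3 with a robust fit, and 0 to 4 when 1 region was left out. In CD45- segments the 2 calls became 1 with DESeq2, 0 with voom and 14 without the filter (11 of them lower), and 0 to 11 with a region left out. The interaction of region type and segment stayed at 0 calls, also with the region as a block (268 against 247 at an unadjusted p under 0.05) and with each region left out; without the filter it was 6. Pairing the segments by region changed no call. Against the young mutant section the 4 calls became 1 with voom, 15 without the filter and 2 to 17 with a wild type region left out; against the old mutant section the 0 calls became 8 without the filter. With a region left out the smallest p the 7 segment measures can reach is 0.0571, so these settings say nothing of their stability. The difference in area turned from -10.3 to 212 in its unstated unit as a difference of medians, and spanned -503 to 663 with a region left out, and the difference in duplicate reads spanned -1.38 to 0.27 percentage points. The log2 fold change of RTS0067799 was 0.040 without the filter and -0.19 to 0.012 with a region left out. That of RTS0062712 spanned -0.73 to 3.69 and that of RTS0068006 -4.83 to 0.66. Leave-one-out fits test fewer segments and fewer counts, and the cause of the shifts was not tested for any setting. Depth limits all fits: 18610 of 20175 identifiers had under 40 counts over the 8 segments.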

Other observations

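RTS0063074, RTS0063075 and RTS0063077 have near-consecutive numbers and were each higher in injured CD68+ segments without overlap, though none passed the test on all 8 regions. They were picked after their values were seen. RTS0063074 averaged 284 ± 107 CPM in injured segments and 95.6 ± 22.1 CPM in peri-injured segments (SD, n = 4 each), with 45.2 ± 7.8 CPM in the air section (adjusted p 0.151). RTS0063075 averaged 357 ± 70.6 CPM in injured segments and 164 ± 52.2 CPM in peri-injured segments, with 15.5 ± 18.6 CPM in air (adjusted p 0.276). RTS0063077 averaged 248 ± 75.6 CPM in injured segments and 65.9 ± 34.2 CPM in peri-injured segments, with 57.8 ± 43.0 CPM in air (adjusted p 0.101). RTS0063076, between them, averaged 38.8 ± 20.4 CPM in injured segments and 58.6 ± 62.8 CPM in peri-injured segments from 9 and 11 counts, too few to be tested. In CD45- segments the regions of RTS0063074, RTS0063075 and RTS0063077 overlapped, with log2 fold changes of 0.32, 0.09 and 0.13. All p-values here are from edgeR over regions of 1 animal.

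RTS0081477 had 2763, 2934, 2349 and 517 CPM in injured regions 2, 3, 4 and 9, against 758, 939, 1029 and 675 CPM in peri-injured regions 5, 6, 7 and 15, and at most 133 CPM in CD68+ segments of the air section. Injured region 9 lay below all peri-injured regions and the other 3 far above them (log2 fold change 1.29, SE 0.36, adjusted p 0.282). RTS0064055 averaged 2549 ± 1006 CPM in injured segments and 1148 ± 640 CPM in peri-injured segments (SD, n = 4 each), with overlap and an adjusted p of 0.388, and 325 ± 64.0 CPM in air. Both were picked after their values were seen.

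The 66 identifiers without overlap in macrophage segments were followed in segments that did not enter that comparison, as a description with no test. In CD45- segments of the same regions, 38 of the 39 higher identifiers had at least 5 counts per segment on average, and 22 of these were higher (57.9%, against 43.9% of 1532 identifiers). Of the 27 lower ones, 26 could be followed and 20 were lower (76.9%, against 56.1%). In the young mutant section 17 of the 39 could be followed and 11 were higher (64.7%, against 58.3% of 561), and 6 of the 27 could be followed, with 3 lower (41.7% of all identifiers followed). In the old mutant section 28 could be followed and 19 were higher (67.9%, against 56.5% of 1115), and 8 of 16 were lower (43.5% of all followed).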
